A study of Mus musculus with 12 samples.

Results

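The genes described here encode the proteins of the cytosolic ribosome, in 12 array samples of leukaemias raised in mice with MLL-AF9, an oncogenic fusion known from human acute leukaemias. Members were the probe sets annotated to a single symbol made of Rpl or Rps and a number, with an optional letter and an l or x suffix, together with Rplp0, Rplp1, Rplp2 and Rpsa. Pseudogene symbols and the Rps6k kinases were left out, and the probe set with the highest mean was kept for each gene. This gave 64 of the 22180 genes with a single-symbol probe set, 40 of the large subunit and 24 of the small subunit. RefSeq lists 82 protein-coding mouse symbols that meet the rule. Of these, 62 had a single-symbol probe set, 13 (Rpl10, Rpl36al and Rps2 among them) were annotated only together with other genes, and 7 (Rps27a among them) had no listed probe set. The other 2 members, Rpl6l and Rps4l, are not protein-coding in RefSeq. Levels are the deposited log2 RMA values, on which a difference of 1 is 2-fold.

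Leukaemias 81, 83 and 85 were labelled as carrying a Dnmt3b knock-in and were set against 73, 75 and 79, labelled wild type. All 6 carried MLL-AF9. Each was split by sorting on c-kit, a receptor tyrosine kinase that marks immature blood cells, into c-kit-positive and c-kit-negative cells, which made 4 groups of 3 arrays. The labels speak of Dnmt3b overexpression and give no promoter, age or strain, do not say whether each number is a separate mouse, and name bone marrow in one field and spleen in another. Where they were not separate mice, p-values measure only the spread between these samples.

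Knock-in and wild type are the names of the labels. The probe set of Dnmt3b, a de novo DNA methyltransferase, read 6.49, 6.38 and 6.33 in knock-in c-kit-positive cells and 6.66, 6.41 and 6.33 in wild-type c-kit-positive cells. It read 6.16, 6.34 and 6.64 in knock-in c-kit-negative cells and 6.25, 6.38 and 6.10 in wild-type c-kit-negative cells, so the genotype groups overlapped in both fractions. The Kit probe set separated the sorted fractions, at 7.88 to 8.15 in knock-in c-kit-positive cells against 6.47 to 6.87 in knock-in c-kit-negative cells, and at 8.01 to 8.34 in wild-type c-kit-positive cells against 6.57 to 6.72 in wild-type c-kit-negative cells.

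A ribosome joins a large and a small subunit, each built of ribosomal RNA and of many proteins that are needed in matching amounts. Their mRNAs are abundant, and in vertebrates most start with a C and a run of pyrimidines, the 5′ terminal oligopyrimidine (TOP) tract, through which the mTORC1 pathway controls their translation. In blood, loss of 1 copy of genes such as Rps19 causes Diamond-Blackfan anaemia in humans, and Rpl5 and Rpl11 bind Mdm2 and thereby stabilise p53 when ribosome assembly fails.

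The promoter windows below are those of 8 of the 10 members that passed the test between c-kit fractions, followed by Rps13 and Rps10, the members with the smallest p between genotypes over both fractions and in c-kit-positive cells. They were taken from RefSeq on build GRCm38.p6, with 40 bases before the start base and 20 from it on, 5′ to 3′ on the strand of the gene. Capitals mark the longest run of at least 5 C or T letters that reaches into the stretch from 10 bases before to 15 bases after the start.
Rpl14: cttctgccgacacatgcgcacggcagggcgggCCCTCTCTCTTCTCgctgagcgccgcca
Rpl38: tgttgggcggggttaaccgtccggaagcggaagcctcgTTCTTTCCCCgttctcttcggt
Rps12: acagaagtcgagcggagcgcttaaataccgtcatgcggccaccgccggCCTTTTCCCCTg
Rps4x: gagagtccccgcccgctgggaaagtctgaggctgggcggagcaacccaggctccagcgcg
Rps24: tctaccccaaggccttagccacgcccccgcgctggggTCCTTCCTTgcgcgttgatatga
Rps19: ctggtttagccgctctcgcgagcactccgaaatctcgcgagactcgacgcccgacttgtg
Rpl13: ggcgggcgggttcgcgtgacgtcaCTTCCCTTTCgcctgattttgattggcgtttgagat
Rps23: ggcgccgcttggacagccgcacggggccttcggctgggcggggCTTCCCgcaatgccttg
Rps13: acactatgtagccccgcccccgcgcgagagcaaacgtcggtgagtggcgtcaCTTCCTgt
Rps10: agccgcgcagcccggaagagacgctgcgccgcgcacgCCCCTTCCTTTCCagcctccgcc

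On the plus strand lie Rpl14 (chr9:120571477-120571536), Rpl38 (chr11:114668540-114668599), Rps24 (chr14:24490638-24490697), Rps19 (chr7:24884552-24884611), Rpl13 (chr8:123102310-123102369) and Rps23 (chr13:90923082-90923141). On the minus strand lie Rps12 (chr10:23787190-23787249), Rps4x (chrX:102189372-102189431), Rps13 (chr7:116334171-116334230) and Rps10 (chr17:27635225-27635284). The start listed first was used, and Rps24 and Rps19 have others in the table. In Rpl14, Rpl38, Rps24 and Rps10 the capitals span the start base, whereas the windows of Rps4x and Rps19 hold no such run.

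The table matched 49 of the 64 members. A C at the start base followed by at least 4 pyrimidines stood in 11 of the 49 (22.4%), against 2.2% of 16990 genes. A run of at least 8 pyrimidines near the start stood in 24 of the 49 (49.0%), against 15.2% of genes. In the 300 bases from 250 before to 50 after the start, read on both strands, CCGGAAG, a motif of ETS factors, stood in 42.9% of the members' windows against 11.7% of genes. The shares were closer for GGGCGG (49.0% of members, 46.7% of genes), TATAA (26.5% and 22.6%), CACGTG, which Myc binds (6.1% and 8.2%), and AAGATGGC, which YY1 binds (2.0% and 3.3%). Matches to different motifs were not kept from overlapping. These shares are descriptions of letters with no test.

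The mean level of a member over the 12 arrays ran between 3.12 for Rpl32l and 12.33 for Rps6, with a median of 7.69, against 5.82 for all genes. The brightest 5 were Rps6, the small subunit protein phosphorylated by S6 kinases, and Rpl21, Rpl41, Rpl28 and Rpl29. The dimmest 5, Rpl32l, Rpl10l, Rpl27a, Rps4l and Rps20, did not exceed log2 4.61 on 3 arrays and were not tested, so 59 members were. Brightness depends on the probes as well as the RNA, and no member's amount is set against another's here. Members varied more across the arrays than most genes did, with a median SD of 0.263, against 0.173 for all genes tested. Rpl14 (SD 0.62) and Rps13 (SD 0.60) varied most.

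Many ribosomal protein genes have processed copies elsewhere in the genome. Probe set numbers of this array run in chromosome order, and 99.6% of 22675 placed single-symbol probe sets stood among numbers of their own chromosome. For 43 members the kept probe set did too, for 17 it stood among numbers of another chromosome, and for 4 it could not be placed. The array's probe sequences and positions were not used here. Values below are therefore also given for the probe sets numbered among their own chromosome.

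In c-kit-positive cells the ribosomal protein genes were mostly lower in knock-in than in wild-type leukaemias, by a median of 0.324 on the log2 scale, but none passed the test singly. Of 59 members, 50 had a difference below 0, 28 had an unadjusted p under 0.05, and 0 had an adjusted p of 0.05 or less by limma over all 19152 genes. Of all genes, 27 passed (0.141%), and the median difference was 0.014. The number of all genes with an unadjusted p under 0.05 is given below for the interaction alone. Counts of members and of other lists at that level are therefore descriptions. The 3 knock-in values lay wholly below the 3 wild-type values in 36 of 59 members, against 9.88% of all genes, and wholly above in 0, against 1447 of 19152 genes.

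Rps10, a protein of the small subunit and a Diamond-Blackfan anaemia gene, had the smallest p. It read 6.99, 7.04 and 6.94 in knock-in c-kit-positive cells and 7.32, 7.46 and 7.40 in wild-type c-kit-positive cells. All 3 knock-in arrays were below all wild-type arrays, and the limma difference of -0.40 (SE 0.10) had an adjusted p of 0.158. Rps13, another protein of the small subunit, had the largest difference of any member, -0.90 (SE 0.24, limma adjusted p = 0.194). It read 7.65, 7.30 and 7.29 in knock-in c-kit-positive cells, against 8.40, 8.06 and 8.48 in wild-type c-kit-positive cells. The large subunit proteins Rpl32 and Rpl38 had differences of -0.71 (adjusted p = 0.184) and -0.65 (adjusted p = 0.215), and the groups of both were apart. Rpl32 read 9.75, 9.63 and 9.59 in knock-in c-kit-positive cells, against 10.41, 10.33 and 10.34 in wild-type c-kit-positive cells. Rpl5, which carries 5S ribosomal RNA into the large subunit and binds Mdm2, had -0.62 (adjusted p = 0.228), on readings of 4.58, 5.30 and 4.83 in knock-in and 5.31, 5.71 and 5.54 in wild-type c-kit-positive cells. On the other side of 0 the smallest p values belonged to Rplp2 (0.19), Rpl26 (0.16), Rpl37a (0.10), Rps23 (0.08) and Rps18 (0.09), with limma adjusted p of 0.682 or more.

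In c-kit-negative cells the median was -0.255 in knock-in relative to wild-type leukaemias, with 49 of 59 members below 0, 21 with an unadjusted p under 0.05 and 0 past the threshold by limma. Of all genes 12 passed (0.0627%), with a median of -0.003. The knock-in arrays lay wholly below the wild-type arrays in 8 of 59 members, against 4.66% of all genes. Rpl3l, a paralogue of Rpl3 known from muscle, was the 1 member whose knock-in arrays lay wholly above (0.17, limma adjusted p = 0.881), where 809 of 19152 genes did. The smallest p again belonged to Rps13, at 7.66, 6.87 and 6.39 in knock-in c-kit-negative cells and 7.87, 7.87 and 7.73 in wild-type c-kit-negative cells. Leukaemia 81 read close to the wild-type arrays, and the difference was -0.85 (SE 0.24, limma adjusted p = 0.591). Rpl8, a protein of the peptidyl transferase centre, read 9.42, 9.04 and 8.44 in knock-in c-kit-negative cells, against 9.53, 9.63 and 9.76 in wild-type c-kit-negative cells. Its difference was -0.67 (SE 0.20, limma adjusted p = 0.623). Rps6, Rpl41 and Rps12 followed with -0.37, -0.35 and -0.35, at limma adjusted p of 0.706 to 0.781.

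Over the mean of both fractions, 3 leukaemias against 3, the median difference of knock-in from wild type was -0.268, against 0.010 for all genes. Of 59 members 48 were below 0, 31 had an unadjusted p under 0.05 and 0 passed by limma, where 5 genes in all passed (0.0261%). The knock-in leukaemias lay wholly below the wild-type leukaemias in 31 of 59 members, against 7.45% of all genes. Rps13 averaged 7.19 ± 0.42 in knock-in and 8.07 ± 0.09 in wild-type leukaemias (SD, n = 3 each), a limma difference of -0.88 (SE 0.19, adjusted p = 0.250). Next by p came Rpl32 with -0.61, Rpl38 with -0.56, Rps3, a small subunit protein at the mRNA entry, with -0.52, and Rpl8 with -0.64, at limma adjusted p of 0.286 to 0.330. The subunits did not part: the median was -0.268 in 37 large subunit members and -0.266 in 22 small subunit members.

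In c-kit-negative cells the knock-in leukaemias were spread out. The median deviation of members from their own means was 0.007 in 81, -0.274 in 83 and -0.574 in 85. In c-kit-positive cells it was -0.020, 0.003 and -0.086. Leaving out the knock-in leukaemia nearest to wild type in c-kit-negative cells widens the genotype difference there. That was leukaemia 81, and it was left out after its values had been seen. Without it, 4 members were lower past the threshold in knock-in c-kit-positive cells (Rps13, Rpl32, Rplp0 and Rpl10a), where 0.569% of all genes were, and 6 in knock-in c-kit-negative cells (Rps13, Rpl32, Rpl10a, Rps3, Rpl14 and Rpl38), where 0.35% of all genes were. Over both fractions 8 were: the same 6 with Rplp0, a protein of the large subunit stalk, and Rps26, against 0.527% of all genes. The kept probe sets of Rplp0 and Rps26 stood among numbers of another chromosome. Rps13 then had a difference of -1.11 (SE 0.11, limma adjusted p = 0.0277). The medians over members were -0.343 in c-kit-positive cells, -0.380 in c-kit-negative cells and -0.362 over both fractions. With a fit to the c-kit-positive arrays alone, 6 members were lower past the threshold in knock-in cells, against 0.266% of all genes.

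**Figure D1:**
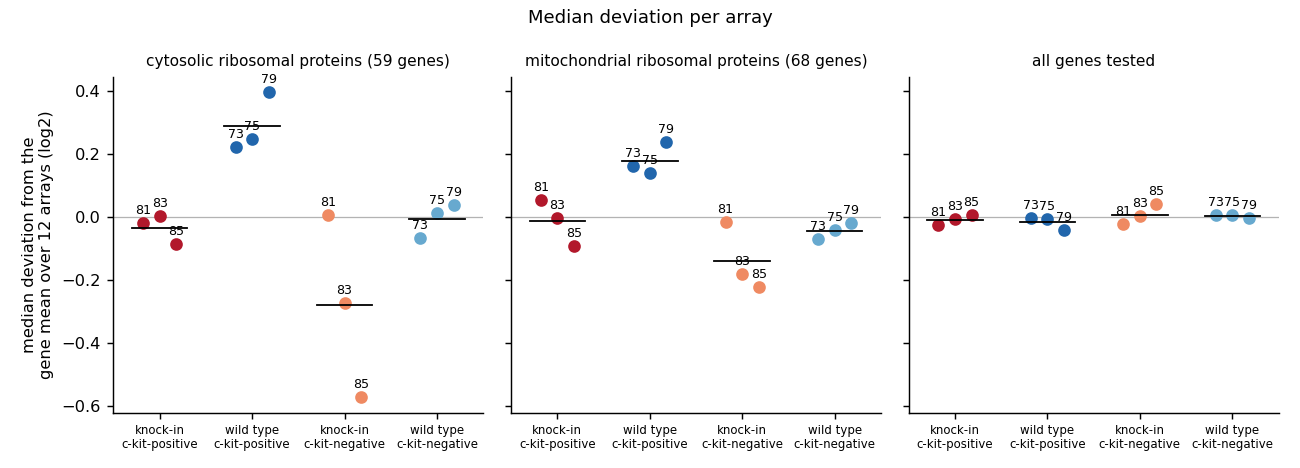
Median over genes of the log2 deviation from each gene's mean over the 12 arrays, for the cytosolic ribosomal protein genes, the mitochondrial ribosomal protein genes and all genes tested. Points are arrays with their leukaemia number and bars are means of 3. Wild-type c-kit-positive arrays sit highest for the cytosolic genes, at 0.222 to 0.397, and c-kit-negative array 85 lowest, at -0.574, while for all genes every array lies within -0.040 and 0.043.

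The plot of array medians shows the 4 groups side by side. Knock-in c-kit-positive arrays had median deviations of -0.020, 0.003 and -0.086, against 0.222, 0.248 and 0.397 on wild-type c-kit-positive arrays, so these groups did not overlap. Knock-in c-kit-negative arrays had 0.007, -0.274 and -0.574, and wild-type c-kit-negative arrays -0.068, 0.012 and 0.038, which overlapped through leukaemia 81.

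**Figure D2:**
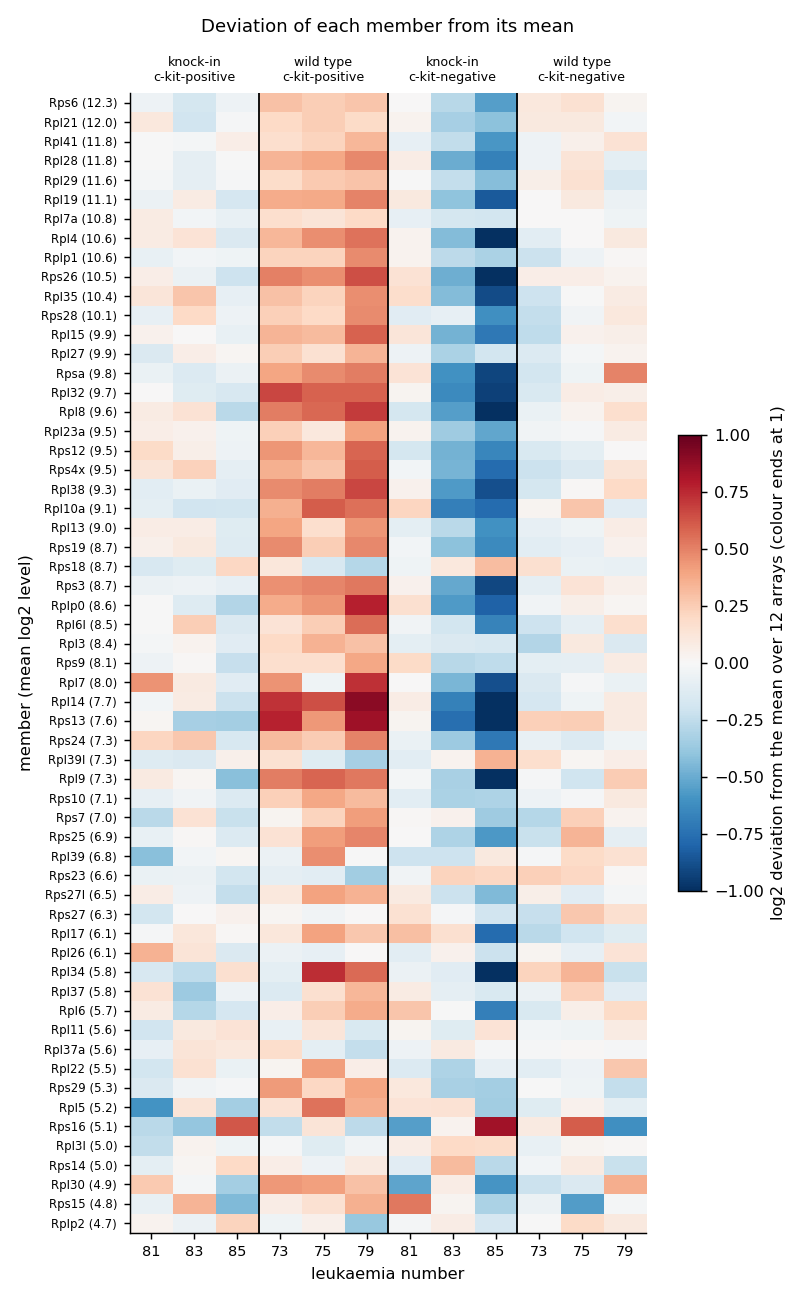
Deviation of each of the 59 tested members from its own mean over 12 arrays (colour, log2, ending at 1 in either direction), with members ordered by mean level and arrays by group. Most bright members, Rps18 aside, share 1 pattern, high on the 3 wild-type c-kit-positive arrays and low on c-kit-negative arrays 83 and 85, while dim members such as Rps16, Rps15 and Rpl30 vary on their own.

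Many members moved together, as the heat map of their deviations shows. Over 1711 pairs of members the median Pearson correlation across the 12 arrays was 0.624 (quartiles 0.042 and 0.865), and it was 0.429 after the group means were removed. Among the 17 members whose probe set stood among numbers of another chromosome the median was 0.880, and among members with an own-chromosome number it was 0.371. The first set was also brighter, with median levels per array of 9.31 to 10.51 against 6.37 to 7.06. Place and level were not separated here. Mitochondrial ribosomal protein genes had a median of 0.410 across the 12 arrays. After the group means were removed they had 0.205, and members with an own-chromosome number had 0.277. Arrays, array processing and sequence-alike probes are shared by the points, so these values are descriptions. Rps16, whose protein lies in the small subunit, was among the 5 most variable members (SD 0.48) and followed another course, with 5.72 and 5.94 in the c-kit-positive and c-kit-negative cells of leukaemia 85 and 4.48 to 5.70 on the other arrays.

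Between the sorted fractions, ribosomal protein genes were mostly higher in c-kit-positive than in c-kit-negative cells. Over both genotypes 9 members rose and 1 fell past the threshold, the median difference was 0.269 against -0.032 for all genes, and 49 of 59 members lay above 0. By limma 8.25% of all genes passed, 5.84% higher and 2.41% lower, and 37 members had an unadjusted p under 0.05. With the leukaemia as a replicate block, which sets both fractions of the same leukaemia against each other, 30 members were higher and 1 lower past the threshold, where 13.0% of all genes were higher and 6.61% lower. Of the members, 16 were higher in c-kit-positive cells in 6 of 6 leukaemias, against 13.0% of all genes. All 6 c-kit-positive values lay wholly above all 6 c-kit-negative values in 0 of 59 members, against 2.13% of all genes, and wholly below in 1, against 1.26%.

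Rps12, a small subunit protein, had the smallest p. It read 9.70, 9.57 and 9.45 in knock-in c-kit-positive cells and 9.33, 9.03 and 8.86 in knock-in c-kit-negative cells. In wild type it read 9.95, 9.84 and 10.09 in c-kit-positive and 9.35, 9.41 and 9.51 in c-kit-negative cells. It was higher in 6 of 6 leukaemias, the groups were apart in both genotypes, and the difference was 0.52 (SE 0.09, limma adjusted p = 0.00433). It passed under all 14 alternatives run for this comparison, with an adjusted p of 0.0395 at most.

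Rpl14 had the largest difference, 0.70 or 1.62-fold (SE 0.18, limma adjusted p = 0.0314), and was higher in 5 of 6 leukaemias. It read 7.72, 7.83 and 7.53 in knock-in c-kit-positive cells and 7.82, 7.07 and 6.37 in knock-in c-kit-negative cells, with 81 the leukaemia that went the other way. In wild type it read 8.47, 8.39 and 8.65 in c-kit-positive and 7.58, 7.70 and 7.83 in c-kit-negative cells. Rpl8 was higher in 6 of 6 leukaemias, by 0.58 (SE 0.14, limma adjusted p = 0.0229). It averaged 9.58 ± 0.22 in knock-in c-kit-positive against 8.97 ± 0.49 in knock-in c-kit-negative cells, and 10.19 ± 0.10 in wild-type c-kit-positive against 9.64 ± 0.12 in wild-type c-kit-negative cells (SD, n = 3 each).

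The other members that rose were Rpl32 (0.52, higher in 5 of 6 leukaemias), Rps4x, the X-linked small subunit protein S4 (0.50, 6 of 6), Rps24 (0.47, 6 of 6), Rpl38 (0.46, 5 of 6), Rps19 (0.41, 6 of 6) and Rpl13 (0.34, 6 of 6). Their limma adjusted p lay between 0.0225 and 0.0464. Rpl13 was the smallest of the 9 and fell outside the rule for named genes, so it is named after its value was seen. Rpl38 is a large subunit protein whose loss in mice alters skeletal patterning, and Rps24 and Rps19 are Diamond-Blackfan anaemia genes.

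Rps23, a protein of the decoding centre, was the member that fell, by 0.28 (SE 0.08, limma adjusted p = 0.0434), and it was lower in c-kit-positive cells in 6 of 6 leukaemias. It read 6.51, 6.52 and 6.40 in knock-in c-kit-positive against 6.55, 6.81 and 6.79 in knock-in c-kit-negative cells. In wild type it read 6.49, 6.48 and 6.24 in c-kit-positive against 6.82, 6.79 and 6.60 in c-kit-negative cells. The 6 c-kit-positive values lay wholly below the 6 c-kit-negative values. Rps18 (-0.13, adjusted p = 0.445) and Rpl39l, a paralogue of Rpl39 known from testis (-0.18, adjusted p = 0.311), were also lower in 6 of 6 but did not pass by limma.

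The number of calls depended on which leukaemias were in the fit. Leaving out leukaemia 73, 75, 79 or 83 left 1 call, Rps12, in each case, by limma with the other leukaemias kept. The share of all genes that passed in those fits is not given here, so the fall is not read as a result about the members. Leaving out 85 gave 10 calls, all higher, where 5.64% of all genes were: 8 were among the 10 above, Rps23 and Rpl38 lost their call, and Rpl4 and Rpl9 gained one. Leaving out 81 gave 29, 28 higher and 1 lower, where 7.97% of all genes were higher, and all 10 were among them.

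**Figure D3:**
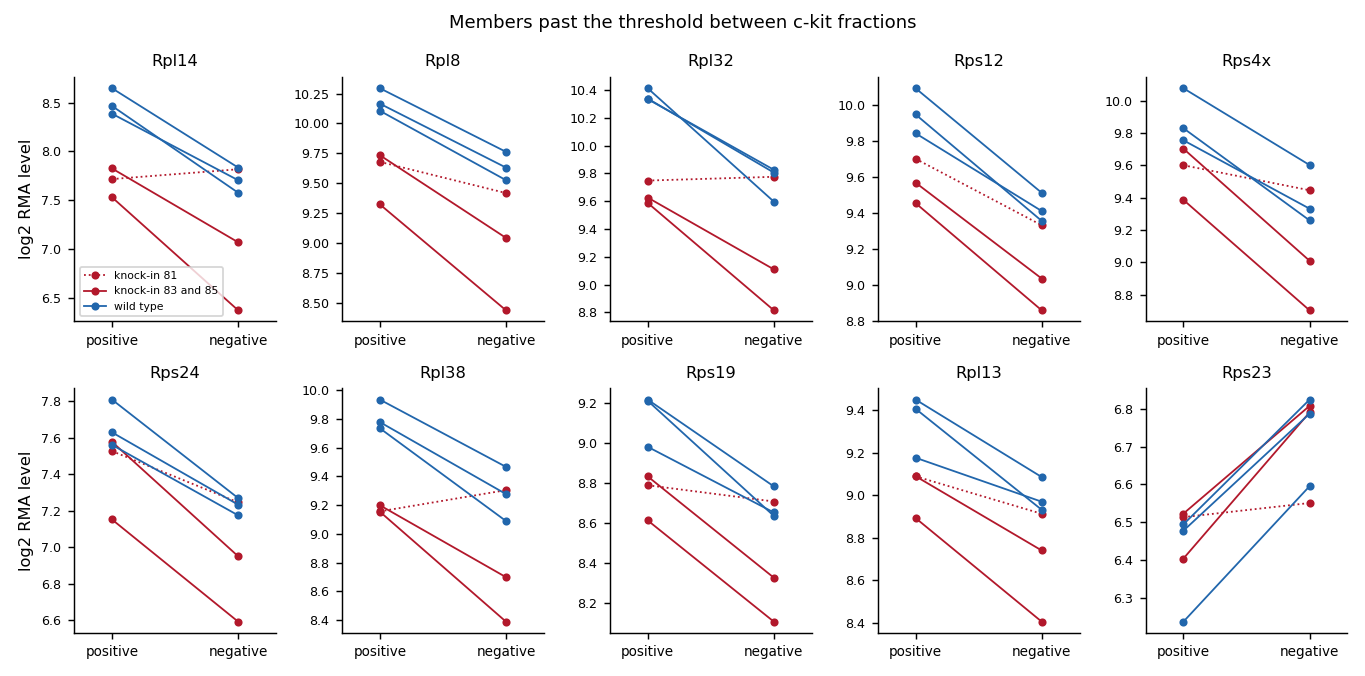
Log2 RMA level of the 10 members past the threshold between c-kit fractions, with c-kit-positive and c-kit-negative cells of each leukaemia joined by a line (red knock-in, blue wild type, dotted leukaemia 81); each panel has its own axis. In 9 members the lines slope down towards c-kit-negative cells apart from the flat or reversed line of 81 in Rpl14, Rpl32 and Rpl38, and in Rps23 all 6 slope up.

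Within each genotype 0 members passed. In knock-in leukaemias the median difference of c-kit-positive from c-kit-negative cells was 0.204, with 48 of 59 members above 0 and 15 with an unadjusted p under 0.05, where 1.88% of all genes passed by limma. The arrays were apart and higher in c-kit-positive cells in 4 of 59 members, against 7.24% of all genes. In wild-type leukaemias the median was 0.355, with 49 of 59 above 0 and 26 with an unadjusted p under 0.05, where 0.768% of all genes passed by limma. There the arrays were apart and higher in c-kit-positive cells in 37 of 59 members, against 14.5% of all genes. With the replicate block 6 members rose in knock-in leukaemias, where 5.95% of all genes rose. In wild-type leukaemias 15 rose and 1 fell, where 7.96% of all genes rose and 3.05% fell.

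By leukaemia, the members' median difference of c-kit-positive from c-kit-negative cells was -0.037 in 81, 0.285 in 83 and 0.479 in 85, and 0.344 in 73, 0.256 in 75 and 0.377 in 79. Leukaemia 81 had 23 of 59 members higher in c-kit-positive cells, and the other 5 had 46 to 52. The interaction, the knock-in difference minus the wild-type difference, had a median of -0.052, and 0.063 without leukaemia 81. No member and no gene passed in it (0.0% of 19152), with 427 genes and 1 member at an unadjusted p under 0.05 by limma. That member was Rpl5, with -0.25 in knock-in and 0.41 in wild-type leukaemias and an interaction of -0.65 (95% interval -1.21 to -0.10, limma adjusted p = 1.0). The knock-in value came from leukaemia 81, with differences of -0.73 in 81, -0.02 in 83 and 0.01 in 85. In wild type they were 0.26 in 73, 0.50 in 75 and 0.46 in 79.

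The differences were larger in bright probe sets, in the members and in all genes. Among 31 members with a mean level of 8 or more, the median was -0.353 between knock-in and wild-type c-kit-positive cells, -0.335 between genotypes over both fractions and 0.368 between c-kit-positive and c-kit-negative cells over both genotypes. For all 1235 genes at that level the same medians were -0.107, -0.102 and 0.164. Among 28 tested members under 8 they were -0.249, -0.213 and 0.106, where all 17917 genes under 8 had 0.018, 0.014 and -0.036. The part of array saturation or scaling in these differences was not tested, and the scaling alternatives are given with the other settings.

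**Figure D4:**
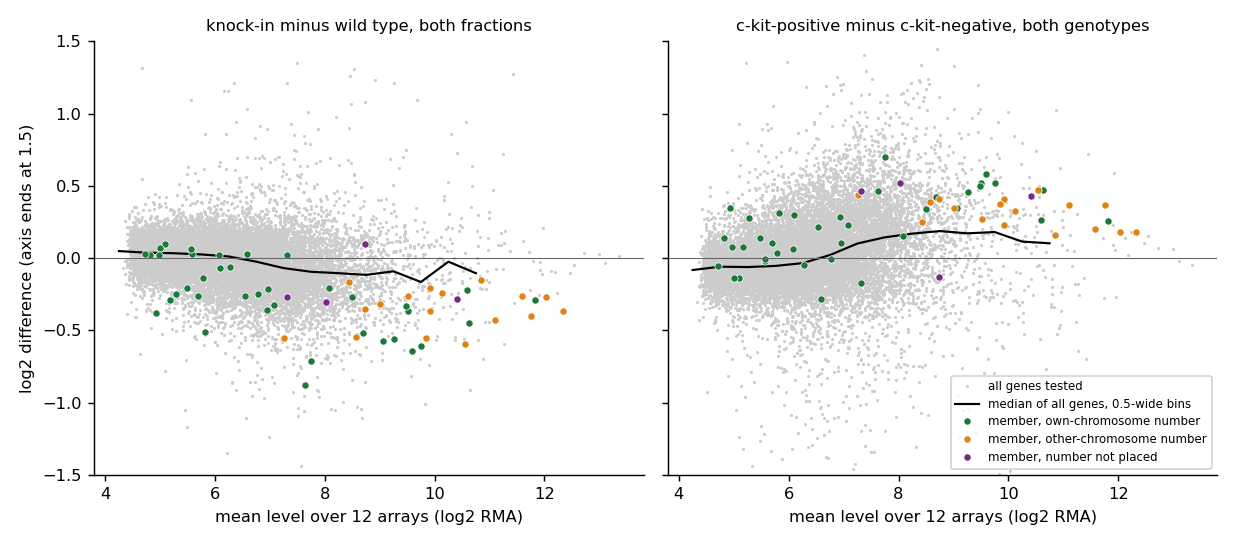
Mean log2 level over 12 arrays against the log2 difference, knock-in minus wild type over both fractions on the left and c-kit-positive minus c-kit-negative over both genotypes on the right. Grey points are all genes tested, the black line their median in bins with at least 20 genes, and coloured points the 59 members by the place of their probe set number; most members lie below the line on the left and above it on the right.

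Where a gene had several probe sets, their differences could be set side by side. For 17 genes a kept probe set that stood among another chromosome's numbers or could not be placed had a second probe set with an own-chromosome number, and the kept one was brighter by a median of 3.33. Between knock-in and wild type over both fractions the median was -0.283 in the kept and -0.071 in the own-chromosome probe sets, with 16 and 12 of 17 below 0. Between c-kit-positive and c-kit-negative cells it was 0.368 in the kept and 0.039 in the own-chromosome probe sets, with 16 and 11 of 17 above 0. Rps24 had 0.47 in its kept and 0.12 in its own-chromosome probe set, Rps19 had 0.41 and 0.02, and Rpl13 had 0.34 and -0.26. These 3 lost their call with own-chromosome probe sets (limma adjusted p of 0.492, 0.880 and 0.112). For the other 7 the kept probe set already had an own-chromosome number. Their values were unchanged in this setting, so it could not test their calls. The own-chromosome probe sets of Rps26 (mean 3.36) and Rps18 (3.93) did not exceed 4.61 on 3 arrays, so their differences are not read here. Over the other 15 genes the own-chromosome medians were -0.086 between genotypes and 0.039 between fractions, against -0.283 and 0.368 in the kept probe sets. With own-chromosome probe sets alone, 53 members were tested, their medians were -0.251 and -0.131 between genotypes in c-kit-positive and c-kit-negative cells and 0.136 between fractions over both genotypes, and 7 rose and 1 fell between fractions. These calls were the 7 members with unchanged values and Rpsa, which gained a call.

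**Figure D5:**
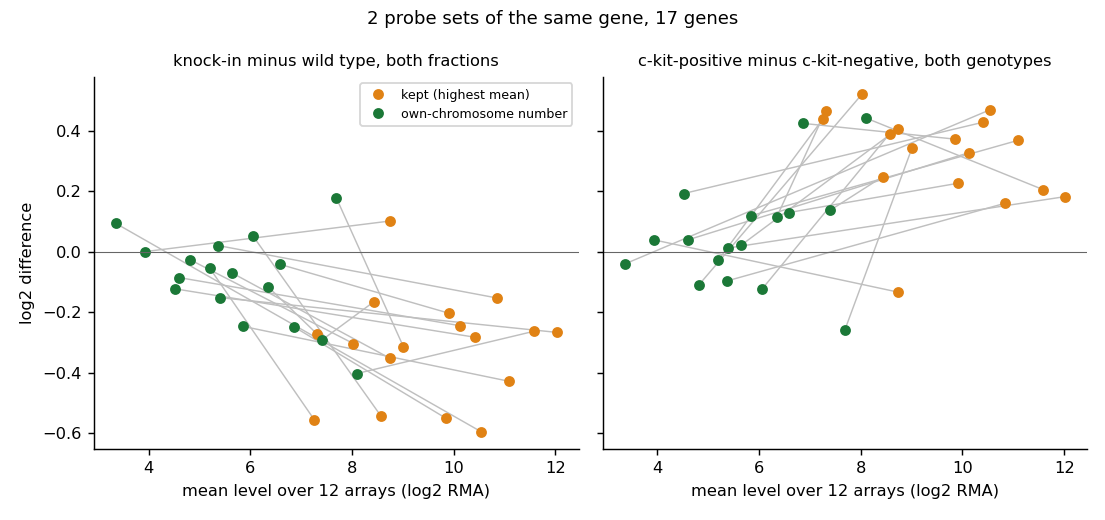
Mean log2 level against log2 difference for both probe sets of 17 genes, joined by a line, orange for the kept and green for the one numbered among its own chromosome; knock-in minus wild type over both fractions on the left, c-kit-positive minus c-kit-negative over both genotypes on the right. Green points are dimmer, and their medians of -0.071 and 0.039 lie closer to 0 than the orange ones, although the green points of Rpl29 in both panels, Rpl3 on the left and Rpsa on the right lie further from 0.

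The stalk proteins recruit elongation factors to the large subunit. Rplp0 had -0.54 and Rplp1 -0.22 between knock-in and wild type over both fractions, and 0.39 and 0.26 between c-kit-positive and c-kit-negative cells, whereas Rplp2 had 0.03 and -0.06. None of the 3 passed by limma (adjusted p of 0.0726 or more), while with the replicate block Rplp0 and Rplp1 rose between fractions. The kept Rplp0 probe set stood among numbers of another chromosome. Its own-chromosome probe set (mean 6.06) had 0.05 between genotypes and -0.12 between fractions. Rplp2 had a mean level of 4.72, near the filter value of 4.61. Rpsa, also the precursor of a laminin receptor, had -0.55 and 0.37 (adjusted p of 0.377 and 0.177). Rps6 had -0.37 and 0.18 (0.330 and 0.232). Of the p53-linked pair, Rpl5 had -0.29 and 0.08 and Rpl11 0.03 and -0.02. Rpl22, deleted or mutated in some human leukaemias, had -0.21 and 0.14, Rpl3 -0.17 and 0.25, Rpl39 -0.25 and -0.01, and Rps27 -0.06 and -0.05. The 4 tested members with a paralogue's name gave a median of -0.120 between genotypes over both fractions and 0.037 between fractions, and Rps27l had -0.26 and 0.22. Rps3a1, Rpl22l1 and Rpl7l1 lie just outside the rule, and of them Rps3a1 rose in c-kit-positive cells (0.42, limma adjusted p = 0.0268). Its kept probe set stood among numbers of another chromosome, and its own-chromosome probe set (mean 3.58) exceeded 4.61 on 0 arrays. Rpl22l1 had -0.04 and Rpl7l1 0.22.

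Genes that serve the ribosome in other ways were counted for the same comparisons, by limma over all genes. Between fractions over both genotypes their counts stand against 5.84% of all genes higher and 2.41% lower, and with the replicate block against 13.0% and 6.61%; a list with 1 call in 14 is near that share. Of 21 tested TOP mRNAs that encode no member, such as elongation factors and host transcripts of small nucleolar RNAs, 21 were below 0 between knock-in and wild type over both fractions (median -0.404) with 0 past the threshold, 0 higher and 0 lower, and 13 with an unadjusted p under 0.05. Zfas1, a noncoding host transcript, had -0.64 there, and Npm1, the nucleolar protein mutated in human leukaemia, -0.52 (adjusted p of 0.297 and 0.385). Between c-kit-positive and c-kit-negative cells 4 of the 21 rose and 0 fell: Snhg6 (0.75, adjusted p = 0.0140), Nap1l1 (0.55), the initiation factor Eif3m (0.47) and Snhg5 (0.30). With the replicate block 16 rose.

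Of 28 ribosome assembly and export factors 27 were below 0 between genotypes over both fractions (median -0.295, 0 past the threshold, 18 with an unadjusted p under 0.05). Lsg1, a GTPase that frees the export adaptor Nmd3, had -0.41 (limma adjusted p = 0.222), Nmd3 itself -0.49 (0.259) and Dkc1, the pseudouridine synthase dyskerin, -0.69 (0.330). Between fractions 7 rose and 0 fell, with Ncl, nucleolin, at 0.85, Nop58 at 0.62, Dkc1 at 0.56, Dimt1 at 0.48, Nob1 at 0.42, Riok1 at 0.41 and Lsg1 at 0.38 (limma adjusted p of 0.00477 to 0.0462), and 16 rose with the replicate block. The 11 genes of the RNA polymerase I machinery, which transcribes ribosomal RNA, had medians of -0.181 and 0.171, with 0 past the threshold in either comparison and 3 and 5 with an unadjusted p under 0.05 by limma. With the replicate block 4 of them rose in c-kit-positive cells.

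The 68 tested mitochondrial ribosomal protein genes, whose ribosome is separate, had a median of -0.115 between genotypes over both fractions (0 past the threshold, 15 with an unadjusted p under 0.05 by limma). Between fractions the median was 0.175, and 8 rose and 0 fell, with the smallest p for Mrpl57 (0.46, limma adjusted p = 0.00394), Mrpl18 (0.41), Mrpl13 (0.43) and Mrpl45 (0.32), and with 23 higher under the replicate block. Of 14 tested Diamond-Blackfan anaemia genes of the rule, Rps24 and Rps19 rose between fractions and 0 fell, and 0 passed between genotypes (medians of -0.259 and 0.256; 6 and 9 with an unadjusted p under 0.05 by limma), and 8 rose between fractions with the replicate block. Both Rps24 and Rps19 lost that call with own-chromosome probe sets, as given above. Of 14 regulators in the mTORC1 pathway 1 rose between fractions, the cap-binding protein Eif4e (0.38, limma adjusted p = 0.0293), and 0 passed between genotypes, where 2 had an unadjusted p under 0.05. With the replicate block 4 rose between fractions. Of 10 tested p53 targets 2 fell in c-kit-positive cells, Trp53inp1 (-1.12) and Btg2 (-0.79), with limma adjusted p of 0.00721 and 0.00235, and 5 fell with the replicate block. Between genotypes their median was 0.025 with 0 past the threshold and 0 with an unadjusted p under 0.05 by limma. Myc, a transcription factor that raises ribosomal gene expression, had -0.56 between genotypes over both fractions (limma adjusted p = 0.408) and rose in c-kit-positive cells (0.56, limma adjusted p = 0.0459).

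Markers of maturing cells moved in these comparisons too. The 11 late neutrophil markers, among them Ltf, Camp and S100a8, had a summed level, as log2, of 13.56 to 13.90 in knock-in c-kit-positive cells against 12.003 to 13.21 in wild-type c-kit-positive cells, and 14.03 to 14.33 in knock-in c-kit-negative cells against 13.11 to 13.82 in wild-type c-kit-negative cells. Between genotypes over both fractions their median was 0.724 and 2 rose, and in c-kit-positive relative to c-kit-negative cells it was -1.040 and 7 fell. Camp went the other way in knock-in leukaemias, at 11.2, 10.6 and 11.4 in c-kit-positive against 10.7, 9.9 and 10.9 in c-kit-negative cells. In c-kit-negative cells Ltf, Ly6g, Cxcr2, Mmp8, Lcn2 and S100a8 were apart and higher in knock-in. Camp, Ngp, S100a9, Mmp9 and Retnlg overlapped between genotypes there. The 4 primary granule markers, Mpo, Elane, Prtn3 and Ctsg, all rose in c-kit-positive cells (median 1.698), and 5 of 6 monocyte markers fell there (median -1.382). The 7 progenitor markers had medians of -0.314 between genotypes (0 past the threshold, 3 with an unadjusted p under 0.05 by limma) and 0.203 between fractions (2 rose). Kit is in this list, and its difference between fractions follows from the sort on c-kit. Cd34 and Flt3 were higher in c-kit-positive cells in some leukaemias and lower in others. B cell markers summed to 9.21 to 10.36 in knock-in c-kit-negative cells against 8.78 to 9.14 in wild-type c-kit-negative cells, the highest in leukaemia 81. T and NK cell markers summed to 7.85 to 8.10 there, against 7.65 to 7.72 in wild type, so both sums were apart. Ighm, the brightest B cell marker, read 9.87, 8.47 and 8.68 in knock-in c-kit-negative cells, against 8.33, 7.81 and 7.62 in wild type. Cd79b, the next brightest, overlapped, at 7.565, 6.405 and 6.25 in knock-in against 6.64, 7.04 and 6.52 in wild-type c-kit-negative cells. Of the other B cell markers Cd79a and Pax5 were apart and higher in knock-in, and Ms4a1 and Ebf1 overlapped. Monocyte markers summed to 11.26 to 11.37 in knock-in c-kit-positive cells against 11.45 to 11.73 in wild-type c-kit-positive cells, also apart. That sum followed Ly6c2, the brightest of them, at 10.947 to 11.127 in knock-in against 11.206 to 11.495 in wild-type c-kit-positive cells. Csf1r, Ctss, Cd14, Fn1 and Lgals3 each overlapped between genotypes in c-kit-positive cells. Arrays give no true 0: in the late neutrophil, primary granule, monocyte, B cell, T and NK cell, erythroid and megakaryocyte lists 0 markers had a mean under the filter value of 4.61, and 1 progenitor marker did. In such mixed samples fewer cells of a type and less RNA per cell cannot be told apart, and the part of the cell mixture in the ribosomal protein differences was not tested.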

How the data were processed

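The deposited table held log2 values of 41345 probe sets on 12 arrays, made by the authors with RMA in Affymetrix Expression Console per the submitters' processing notes, with no versions given. It held 0 columns of other samples. Per the labels, total RNA was purified on columns and labelled by an Affymetrix protocol for whole transcripts. No scanner files were compared. Arrays have no read depth, and precision is limited by their number. RMA normalizes quantiles, so differences are relative to the other genes of an array.

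Probe sets with 1 annotated symbol (23521 of them) were reduced to the highest-mean probe set of each of 22180 genes. A gene was tested where 3 or more arrays read over log2 4.61, which is the 25th percentile of all deposited values (19152 genes). One limma model (version 3.58.1, R 4.3.3) with 4 group means was fitted to the 12 arrays, and for genotype over both fractions the 2 arrays of a leukaemia were averaged first. All p-values are two-sided and Benjamini-Hochberg adjusted over every gene tested, with calls at 0.05 or less. The fit was tested on simulated data.

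Both arrays of a leukaemia carry its number, and after removal of group means they correlated at 0.279 to 0.601, so the numbers pair them, and the leukaemia was a replicate block in an alternative fit. Other alternatives were the scaling, the filter, the probe set rule, the variance model, the arrays in the fit, a wider symbol rule, the brightest members left out, and each leukaemia left out. A probe set number was placed where at least 15 of its 20 neighbouring numbers lay on 1 chromosome. Marker and pathway values follow the same fit.

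Named members were those past the threshold, up to 8 per direction by size, otherwise the 5 with the smallest p in a direction, plus a fixed set of well known members, the brightest, dimmest and most variable 5, and up to 4 of each other list. The members and lists were chosen with earlier results of these data known, so no list is independent evidence. RefSeq symbols and promoters came from the GRCm38.p6 tables.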

Additional observations from a re-analysis of the deposited data

Results flagged for a closer look

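Rpl26, a large subunit protein that also binds p53 mRNA in humans, was singled out because the c-kit difference had the same sign in all 3 leukaemias of each genotype and opposite signs between the genotypes. In knock-in leukaemias 81, 83 and 85 it read 6.42, 6.21 and 5.93 in c-kit-positive cells, against 5.97, 6.12 and 5.86 in c-kit-negative cells, higher in 3 of 3. In wild-type leukaemias 73, 75 and 79 it read 6.02, 5.99 and 6.08 in c-kit-positive cells, against 6.10, 5.99 and 6.21 in c-kit-negative cells, lower in 3 of 3, with both readings of 75 alike to 2 decimals. The knock-in difference minus the wild-type difference was 0.27 (95% interval -0.11 to 0.66), with a limma adjusted p of 1.0 over all genes. The share of all genes that met this sign rule was not counted, so it is not read as a result about the members. By a wider rule, knock-in differences lay wholly above wild-type differences in 1 of 59 members, against 1101 of 19152 genes. They lay wholly below in 4 members, against 1017 genes.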

How the results depend on the processing

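The median difference of the members kept its direction under every alternative run in the genotype and c-kit comparisons, and the interaction turned positive without leukaemia 81 (0.063). The medians ran between -0.366 and -0.251 between genotypes in c-kit-positive cells, and between 0.136, with own-chromosome probe sets, and 0.322 between fractions over both genotypes. Counts of members past the threshold moved. Where no share of all genes was given above for a setting, its count describes the setting and is not read as a result about the members. With the leukaemia as a replicate block 6 members passed between fractions in knock-in, 16 in wild-type and 31 over both genotypes, and the block changed no other count. With the arrays of the groups compared alone, 6 passed between genotypes in c-kit-positive cells and 16 between fractions in wild type; this fit was run in the 4 comparisons between 2 groups. Quantile normalization repeated gave 1 between fractions in knock-in and 1 in wild type. Over both genotypes, where 10 passed, that setting and the stricter filter gave 14 each, array centring 10 (8 of them shared), the wider rule 11, no filter, the mean of probe sets and leaving out the brightest 9 each, own-chromosome probe sets 8, and eBayes with trend and robust 7, without Rpl13, Rpl38 and Rps19. Leaving out each leukaemia gave 0 to 4 between genotypes in c-kit-positive cells, 0 to 6 in c-kit-negative cells and 0 to 8 over both fractions. Between fractions it gave 0 to 4 in knock-in, 0 to 7 in wild type and 1 to 29 over both genotypes, the highest each time without leukaemia 81 (wild type also without 85). Own-chromosome probe sets, chosen after seeing the data, turned Rpl7 between fractions in knock-in to -0.0315. Leaving out each leukaemia turned the sign of some uncalled differences. Between genotypes Rps23 then ran between -0.0059 and 0.12 and Rps18 between -0.0287 and 0.20 in c-kit-positive cells, Rpl17 between -0.11 and 0.43 and Rps16 between -0.28 and 0.41 in c-kit-negative cells, and Rps18 between -0.0030 and 0.20, Rpl11 between -0.0310 and 0.0796 and Rps16 between -0.24 and 0.33 over both fractions. Rplp2 ran between -0.13 and 0.0070 between fractions, and in the interaction Rpl41 between -0.0408 and 0.24 and Rps23 between -0.0032 and 0.17. Of the values of single named members under the alternatives, 964 kept sign and call, 32 gained a call, 42 lost one and 16 changed sign; the cause was not tested.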
